A study of Caenorhabditis elegans with 54 samples.

Results

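In Caenorhabditis elegans, 179 genes were examined that had almost no small RNA in prg-1(n4357) animals and had it in ergo-1(tm1860) animals. They came from 6 small RNA libraries, called set 1 here, with 3 libraries per strain. Each count was turned into CPM, its number per 1000000 counts of the library. Of 45904 gene names, 5923 averaged at least 20 CPM in ergo-1, and the 200 of these with the lowest prg-1 to ergo-1 ratio, with 0.1 added to both means, were taken. After 21 were left out by symbol (large families such as fbx, pals and nhr, and a few single names), 179 members remained. The members were thus chosen by their set 1 small RNA levels in prg-1 and ergo-1, which are described here and not tested. All tests use set 2, whose values do not enter this rule and which holds 24 small RNA and 24 mRNA libraries.

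All animals were day 1 adults, taken whole, with 8000 per sample. Set 2 holds 8 strains with 3 libraries per strain and assay, from animals kept at 20 °C until 64 h. The ergo-1 double mutant carries prg-1(n4357) and ergo-1(tm1860). The hrde-1 double mutant carries prg-1(n4357) and hrde-1(tm1200). The 3 mut-16 strains carry mut-16(pk710) together with a deletion: one lacks sosi-1, one lacks eri-6[e-f] and one lacks both. The 3 deletion strains carry the same deletions with an intact mut-16, and serve as the set against which the others are compared. Each of the 6 strains without prg-1(n4357) thus carries a deletion at eri-6[e-f], at sosi-1 or at both, which the prg-1 double mutants do not. Wild type was not analysed here, and a prg-1 strain without a second mutation was sequenced in set 1 only. For set 1 the labels list 20 °C (68 h) and 25 °C (48 h) and do not say which strain had which. The labels speak of triplicates and do not say whether these are separate cultures, so each p reflects the spread among these libraries alone, which may be technical.

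PRG-1 is the Piwi-class Argonaute that binds piRNAs, also called 21U-RNAs, in the germline. When a piRNA pairs with a transcript, RNA-dependent RNA polymerases copy that transcript into 22G-RNAs, a step that takes place in mutator foci built on the scaffold protein MUT-16. The 22G-RNAs load onto WAGO Argonautes. HRDE-1 is the nuclear one that carries silencing across generations, and ERGO-1 is an Argonaute of a separate class that binds 26G-RNAs and starts 22G-RNA synthesis on other targets.

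Across the members the set 1 prg-1 level was between 0.0735% and 0.604% of the ergo-1 level. Y43D4A.6 had the lowest ratio, with 0.274, 0.543 and 1.03 CPM in the prg-1 libraries and 927, 1004 and 989 CPM in the ergo-1 libraries. Just inside the limit were F32A11.5 at 0.601%, arrd-15 at 0.602% and F22B7.9 at 0.604%, and just outside it were acs-5 at 0.609%, arl-13 at 0.612% and Y11D7A.19 at 0.615%. The limit therefore falls in a continuous range and marks no gap. RefSeq (WBcel235) lists 149 members as protein-coding and 27 as pseudogenes, and 3 were not matched. Pseudogenes made up 15.3% of the 176 matched members and 4.37% of the 5908 matched names that were ranked. Only 65 members have a gene symbol and 114 go by a sequence name. The symbols are spread over many families, the most frequent being sdz (SKN-1 dependent zygotic transcripts) with 3 members, and arrd, jmjd, ser and srh with 2 each. Members were mostly apart in the genome, since 6 pairs, 12 members in all, are direct neighbours. Another gene overlaps 47 of the 176, and how the counting treated strand is not stated, so reads of these members and their partners cannot be told apart. None of the members belongs to the piRNA, 22G-RNA or WAGO gene lists given further below.

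Library totals, rounded to 4 digits, ranged from 10940000 to 14730000 counts in set 1, from 8000000 to 42010000 for set 2 small RNA and from 13220000 to 93980000 for set 2 mRNA. The ergo-1 deletion was visible in the mRNA, at 2.965 to 4.506 CPM in the ergo-1 double mutant and at least 35.14 CPM in every other set 2 library. The mRNA totals of prg-1 and hrde-1 do not show their deletions. For prg-1 they were 73.98 to 148.5 CPM in the ergo-1 double mutant and 94.49 to 137.3 CPM in the hrde-1 double mutant. The strains with intact prg-1 spanned 64.52 to 350.0 CPM. For hrde-1 they were 251.0 to 452.6 CPM in the hrde-1 double mutant, within the 72.05 to 962.9 CPM of the other strains. The small RNA totals of both genes did differ. Small RNA on hrde-1 was 297.9 to 383.9 CPM in the hrde-1 double mutant and at least 923.6 CPM elsewhere. On prg-1 it was 463.4 to 663.9 CPM in the double mutants and at least 956.6 CPM elsewhere. Which part of each gene the counted reads come from was not given. In replicate 1 of the hrde-1 double mutant, 18.99% of small RNA counts fell on a single entry named eri6.1, against 0.05873% and 0.07852% in replicates 2 and 3. CPM divides by the library total, so that entry makes up part of the total in this library. Small RNA replicate 3 of the ergo-1 double mutant carries a label of mRNA selection, while its values resemble the other 2 replicates.

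The members together held a large part of the small RNA pool where PRG-1 and MUT-16 were intact, and little of it elsewhere. In set 1 they took 0.0257% ± 0.0043 of counts in prg-1 and 8.21% ± 0.202 in ergo-1 (SD, n = 3 libraries each). In set 2 they took 1.56%, 1.655% and 1.579% in the ergo-1 double mutant, and 0.851%, 1.1% and 1.096% in the hrde-1 double mutant. The mut-16 strains stood at 0.0661% to 0.104%, and the deletion strains at 7.816% to 8.535%. Both prg-1 double mutants thus lay between the mut-16 strains and the deletion strains, and no library of one set entered the range of another. With the eri6.1 entry left out of the total, the low hrde-1 replicate 1 stood at 1.051%. The median member looked different from the sum. It stood at 0.861, 0.625 and 0.714 CPM in the ergo-1 double mutant, at 1.34, 0.482 and 1.226 CPM in the hrde-1 double mutant, and between 0.7231 and 1.261 CPM in the mut-16 strains, against 137.3 to 161.7 CPM in the deletion strains. The counts that were left in the prg-1 double mutants therefore sat on a minority of the members.

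**Figure D1:**
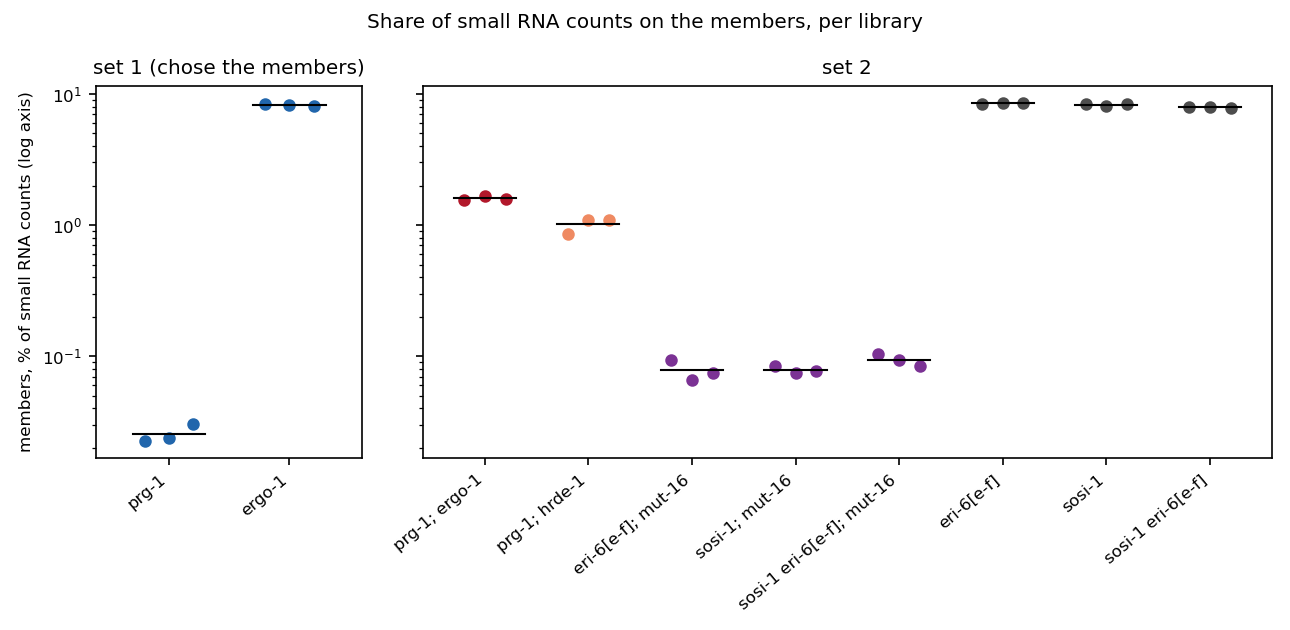
Share of all small RNA counts that fell on the 179 members, in percent on a log axis, with 1 point per library and a line at the mean of 3 libraries. Set 1, left, chose the members; in set 2, right, the double mutants stand at 0.851% to 1.655%, the mut-16 strains at or under 0.104% and the deletion strains at 7.816% or more.

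Most members were lost in both prg-1 double mutants. In the ergo-1 double mutant 163 of 179 were called lower than in the deletion strains and 1 was called higher, where called means an adjusted p below 0.05 (edgeR quasi-likelihood test, Benjamini-Hochberg over all 15380 names tested) and a change of at least 2-fold. Of all names tested, 28.3% were called lower and 16.3% higher in that comparison. In the hrde-1 double mutant 164 members were called lower and 3 higher, against 27.9% lower and 24.3% higher of all names. The median member changed by -7.11 on the log2 scale in the ergo-1 double mutant and by -7.04 in the hrde-1 double mutant, while the median of all names changed by 0.10 and 0.08. Both comparisons use the same deletion strains, so they do not count as separate evidence. Fold changes are scaled by TMM, a normalization that evens out the bulk of the names. CPM values here are not, so a fitted fold differs from a ratio of CPM. The TMM factors for small RNA were 0.6673 to 0.7765 in the double mutants and 1.009 to 1.199 in the other strains.

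Among the members with the deepest loss was Y110A2AL.10, which changed by -10.59 ± 0.36 (log2 fold change ± SE) in the ergo-1 double mutant. M02F4.9, a pseudogene next to the member M02F4.1, had 0.676, 0.0 and 0.125 CPM in the ergo-1 double mutant, 1.34, 0.215 and 1.396 CPM in the hrde-1 double mutant, and 557.5 to 645.5 CPM with a median of 596.0 in the deletion strains. Its log2 changes were -10.34 ± 0.34 (adjusted p = 9.54e-18) and -9.002 ± 0.31 (adjusted p = 1.37e-17, both edgeR). No double mutant library came near the deletion range. K08B4.5, a pseudogene with the highest ergo-1 level of any member in set 1, had 10.7, 9.998 and 9.522 CPM in the ergo-1 double mutant, 13.79, 3.925 and 10.42 CPM in the hrde-1 double mutant, and 3358 to 3827 CPM with a median of 3588 in the deletion strains. It changed by -7.995 ± 0.29 in the ergo-1 double mutant and by -8.07 ± 0.29 in the hrde-1 double mutant. The gene xol-1, the master switch of sex determination and a known piRNA target, had 0.492, 0.500 and 0.619 CPM in the ergo-1 double mutant, 1.075, 0.312 and 0.701 CPM in the hrde-1 double mutant, and 141.3 to 198.6 CPM with a median of 181.0 in the deletion strains. Its log2 changes were -7.79 ± 0.22 in the ergo-1 double mutant and -7.51 ± 0.22 in the hrde-1 double mutant, so loss was near complete in both. A member below 1 CPM rests on few reads, and small differences among such members are not read here.

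A minority of the members had small RNA in a prg-1 double mutant after all. At least 10% of the mean deletion-strain CPM was left for 36 members in the ergo-1 double mutant and for 25 in the hrde-1 double mutant. The members were not the same, since 14 passed 10% in both, 22 in the ergo-1 double mutant alone, 11 in the hrde-1 double mutant alone, and 132 in neither. At least 50% was left for 9 members in the ergo-1 double mutant and 13 in the hrde-1 double mutant. Among 6110 names at 20 CPM or more in the deletion strains, 72.18% had that much left in the ergo-1 double mutant and 67.38% in the hrde-1 double mutant. Another 14.88% and 18.33% of these names, in that order, had 10% to 50% left. In the deletion strains, the median small RNA level was 386.0 CPM for the 36 and 125.3 CPM for the other 143. For the 25 of the hrde-1 double mutant it was 211.3 CPM, and for the other 154 it was 137.8 CPM. These levels are the denominators of the share left, so they are a description.

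The clearest case in both strains was aex-6, which encodes the Rab27 small GTPase of dense core vesicle release. In set 1 it had 1.006, 1.29 and 0.951 CPM in prg-1 and 503.7, 523.2 and 529.2 CPM in ergo-1. In set 2 it had 899, 944.5 and 911.2 CPM in the ergo-1 double mutant, 719.7, 894.4 and 968.8 CPM in the hrde-1 double mutant, 3.51 to 6.407 CPM with a median of 5.786 in the mut-16 strains, and 716.2 to 784.1 CPM with a median of 739.7 in the deletion strains. The sets were made separately, so their levels stand side by side without a test. All prg-1(n4357) libraries of set 2 held aex-6 small RNA at or above 719.7 CPM, and those of set 1 held at most 1.29 CPM. Its log2 change against the deletion strains was 0.80 ± 0.08 in the ergo-1 double mutant and 0.77 ± 0.08 in the hrde-1 double mutant, short of the 2-fold limit.

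In T24H10.5 the small RNA was above the deletion strains in the hrde-1 double mutant. It had 805.8, 855.1 and 853.1 CPM in the ergo-1 double mutant, 1946, 2479 and 2487 CPM in the hrde-1 double mutant, and 795.1 to 936.9 CPM with a median of 849.8 in the deletion strains. The hrde-1 double mutant libraries all exceeded the deletion range, by 1.98 ± 0.09 on the log2 scale (adjusted p = 2.24e-15, edgeR), and the ergo-1 double mutant libraries lay inside it. ZK1055.7 and lin-1, the ETS transcription factor of vulval induction, were the other members called higher there, by 1.52 ± 0.07 and 1.07 ± 0.08. The lin-1 call did not hold when replicate 2 of the hrde-1 double mutant was left out (0.88). Without TMM scaling 1 member stayed called higher there, and neither the ZK1055.7 call (0.96) nor the lin-1 call held. In the ergo-1 double mutant T22F3.12 was the member called higher, by 1.14 ± 0.09, with 181.7, 211.9 and 187.5 CPM against 114.2 to 130.7 CPM in the deletion strains. That gene overlaps T22F3.2, and its call was lost without TMM scaling (0.65) and with DESeq2 (0.996).

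Set directly against each other, the prg-1 double mutants differed in many members and in both directions. The ergo-1 double mutant was called lower than the hrde-1 double mutant in 34 members and higher in 37, while 16.9% of all names were called lower and 6.7% higher. The count of lower calls rests on 1 library: without replicate 2 of the hrde-1 double mutant, 34.08% of the 179 were called lower, against 18.99% with all libraries. Most of this shift came from the 126 members under 10 CPM in both strains, a split chosen after the values were seen, where 42 were called lower without that library and 15 with it. The members named next reach 10 CPM in at least 1 of the strains.

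Among the 37 members called higher in the ergo-1 double mutant was mks-1, which encodes a protein of the ciliary transition zone. It had 131.4, 152.3 and 136.0 CPM in the ergo-1 double mutant and 1.301, 0.315 and 1.822 CPM in the hrde-1 double mutant, a log2 difference of 7.20 ± 0.23 (adjusted p = 2.04e-17, edgeR). The deletion strains held 150.7 to 278.4 CPM of it, so the ergo-1 double mutant was near that range and the hrde-1 double mutant was far below. Y53F4B.5 had 1342, 1406 and 1303 CPM in the ergo-1 double mutant, 33.06, 34.99 and 44.65 CPM in the hrde-1 double mutant, and 1067 to 1198 CPM with a median of 1094 in the deletion strains. The difference between the double mutants was 5.12 ± 0.11 (adjusted p = 1.01e-20, edgeR). For cars-2, a pseudogene named after cysteinyl-tRNA synthetases, the levels were 3839, 4015 and 3864 CPM in the ergo-1 double mutant, 364.3, 444.5 and 468.2 CPM in the hrde-1 double mutant, and 5052 to 5403 CPM with a median of 5098 in the deletion strains. Its difference was 3.14 ± 0.09 (adjusted p = 3.99e-18, edgeR). Other members of this kind were W03H9.2 (1894, 2067 and 1890 CPM in the ergo-1 double mutant, 36.27, 33.7 and 54.4 CPM in the hrde-1 double mutant), acs-2, an acyl-CoA synthetase of fatty acid breakdown (44.45, 53.85 and 48.85 CPM in the ergo-1 double mutant, 0.771, 0.988 and 1.927 CPM in the hrde-1 double mutant), and pll-1, a phospholipase C-like gene (262.2, 302.7 and 286.6 CPM in the ergo-1 double mutant, 7.278, 10.53 and 11.04 CPM in the hrde-1 double mutant). In each of these the libraries of the strains were far apart.

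The opposite pattern was as sharp. The gene nspg-1, of a nematode-specific peptide family, had 0.246, 0.125 and 0.488 CPM in the ergo-1 double mutant and 96.56, 122.8 and 127.3 CPM in the hrde-1 double mutant, a log2 difference of -8.39 ± 0.14 (adjusted p = 4.09e-22, edgeR). The deletion strains held 100.5 to 152.3 CPM, which the hrde-1 double mutant nearly matched. Another 3 genes overlap nspg-1, among them anp-1, so its reads are uncertain. The Wnt ligand gene egl-20 had 0.567, 0.250 and 0.486 CPM in the ergo-1 double mutant, 21.16, 26.15 and 25.32 CPM in the hrde-1 double mutant, and 120.9 to 152.7 CPM in the deletion strains. The pseudogene Y52B11A.18 had 140.9, 143.7 and 136.1 CPM in the ergo-1 double mutant and 1254, 1943 and 1749 CPM in the hrde-1 double mutant, with 2279 to 3106 CPM in the deletion strains. ZK1055.7 had 28.42, 31.86 and 25.18 CPM in the ergo-1 double mutant, 566.7, 719.2 and 686.3 CPM in the hrde-1 double mutant, and 295.1 to 378.9 CPM in the deletion strains. Its direct difference was -4.62 ± 0.11 (adjusted p = 1.85e-19, edgeR), and the strains lay on opposite sides of the deletion range. W02B12.13, the member with the third lowest ratio in set 1, had 5.045, 3.124 and 4.951 CPM in the ergo-1 double mutant and 42.03, 53.72 and 60.26 CPM in the hrde-1 double mutant, while set 1 prg-1 held 0.0914, 0.0679 and 0.238 CPM. A single library decided sdz-14, with 104.6, 1.558 and 1.794 CPM in replicates 1, 2 and 3 of the hrde-1 double mutant: its difference of -5.15 ± 1.08 became -0.55 without replicate 1.

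**Figure D2:**
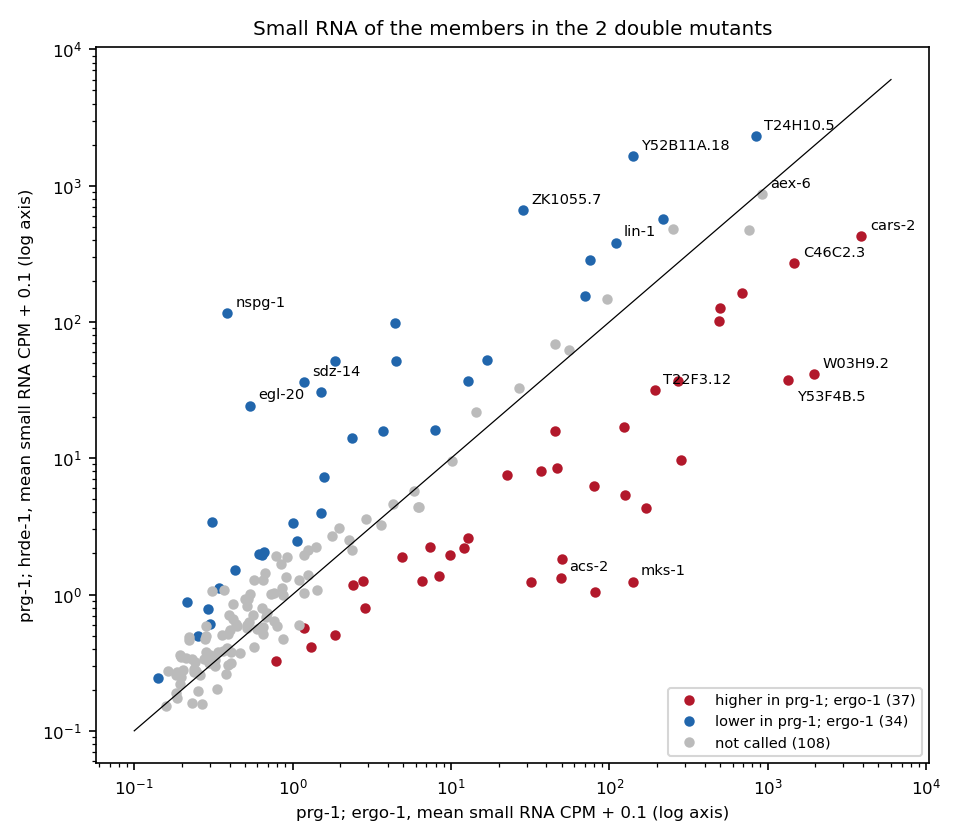
Mean small RNA level of each of the 179 members in the ergo-1 double mutant (x) and the hrde-1 double mutant (y), in CPM with 0.1 added, on log axes, with a line at equal values. Red and blue points are the 37 members called higher and the 34 called lower in the ergo-1 double mutant; nspg-1, ZK1055.7 and Y52B11A.18 stand well above the line, and mks-1, W03H9.2 and Y53F4B.5 well below it.

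With mut-16(pk710), loss reached almost all members. Against the deletion strains, 177 of 179 were called lower and 2 higher in the mean over the 3 backgrounds, and 41.9% of all names were called lower and 13.3% higher. In each of these 177 the 9 mut-16 libraries lay below the 9 deletion libraries, as they did for 37.1% of names averaging at least 1 CPM. The median member changed by -7.59 on the log2 scale, against -0.33 for the median name. The 177 were also called lower in every background taken alone, where 40.8% (eri-6[e-f]), 41.8% (sosi-1) and 38.8% (both deletions) of names were called lower. Called higher were 2, 1 and 2 members in that order, with 14.4%, 13.9% and 12.3% of names. Members whose small RNA was high in the prg-1 double mutants were low here too: aex-6 changed by -7.36 ± 0.08, T24H10.5 by -7.22 ± 0.09 and cars-2 by -5.88 ± 0.06. The lowest value was that of Y105E8A.1, at -8.90 ± 0.12. The size of the effect differed between backgrounds for 20 members, and for 9.58% of all names. Of the 6110 names at 20 CPM or more in the deletion strains, 73.11% (eri-6[e-f]), 73.29% (sosi-1) and 73.52% (both deletions) kept at least 50% with mut-16. Another 7.136%, 7.349% and 7.152% kept 10% to 50%. In each of the 3 mut-16 strains under 10% of the mean deletion level was left for all members but 3.

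Those exceptions were srh-228, F22B8.9 and rsbp-1. The chemoreceptor gene srh-228 had 37.68 to 77.25 CPM with a median of 52.7 in the mut-16 strains and 11.46 to 32.05 CPM with a median of 19.11 in the deletion strains, a log2 change of 1.25 ± 0.08 (adjusted p = 8.07e-13, edgeR). In the ergo-1 double mutant it had 0.0615, 0.125 and 0.0732 CPM, and in the hrde-1 double mutant 0.15, 0.0910 and 0.263 CPM. The pseudogene F22B8.9 had 55.15 to 94.54 CPM with a median of 81.82 in the mut-16 strains and 21.03 to 30.13 CPM with a median of 22.43 in the deletion strains, a change of 1.57 ± 0.08 (adjusted p = 2.98e-14, edgeR). In the ergo-1 double mutant F22B8.9 had 0.123, 0.0 and 0.167 CPM, and in the hrde-1 double mutant 0.175, 0.13 and 0.438 CPM. Both were thus higher in mut-16 strains and near 0 in the prg-1 double mutants. The srh-228 effect was 2.21 with both deletions and 1.14 with eri-6[e-f]. With sosi-1 it was 0.39, short of the limit. In rsbp-1, which encodes a binding partner of R7-type regulators of G protein signalling, small RNA fell by 1.34 on the log2 scale, to 58.5 to 81.21 CPM in the mut-16 strains, against 153.7 to 171.8 CPM in the deletion strains. It had 8.309, 7.747 and 8.988 CPM in the ergo-1 double mutant and 1.505, 0.988 and 1.314 CPM in the hrde-1 double mutant. The gene T06D10.8 overlaps rsbp-1.

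The ergo-1 double mutant was also set against the mut-16 strains. There 62 members were called higher and 23 lower, when 27.8% of all names were called higher and 3.23% lower. Without TMM these became 54 members higher and 57 lower, with 18.28% of all names higher and 17.49% lower. The median member differed by 0.19 and the median name by 0.22 on the log2 scale, so the median member stood close to the median name. Single members ranged from -8.74 to 9.11.

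At the mRNA level the members were weakly expressed. Their mRNA took 0.0846% to 0.148% of counts in the 8 strain means. In the deletion strains the median member stood at 0.887 CPM, and the median of the 6110 names with at least 20 CPM of small RNA at 44.86 CPM. At least 1 CPM of mRNA was reached by 83 members (46.37%, against 90.52% of those names), at least 10 CPM by 18 (10.06%, against 79.05%), and at least 100 CPM by 2 (1.12%, against 20.08%). CPM is not corrected for gene length, so it does not rank genes by transcript number. Since 28 members were too low to test, the mRNA counts that follow cover 151 of 179, and members with mRNA in a single group could pass the filter through that group.

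The mRNA calls of the members went in both directions, as did those of all names. In the ergo-1 double mutant 27 of the 151 were called lower than in the deletion strains (17.88%) and 22 higher (14.57%), and of all 15376 names tested 10.6% were called lower and 14% higher. In the hrde-1 double mutant 39 were called lower (25.83%) and 26 higher (17.22%), with 13.6% lower and 25.5% higher among all names. For the mean mut-16 effect 19 were called lower (12.58%) and 21 higher (13.91%), with 4.7% and 13.2% among all names. By background, mut-16 gave 27 members lower and 20 higher with eri-6[e-f] (9.48% and 16.2% of all names), 8 lower and 26 higher with sosi-1 (3.24% and 10.4%), and 50 lower and 14 higher with both deletions (22.1% and 28.1%). The effect differed between backgrounds for 86 members and for 60.1% of all names. Against the mut-16 strains, the ergo-1 double mutant had 17 members lower and 12 higher (6.72% and 5.27% of all names). Between the double mutants 17 were lower in the ergo-1 double mutant and 29 higher, with 24.4% and 4.66% among all names. Against the mean of the 3 deletion strains, the shares called lower were thus above those of all names, and the shares called higher were near or under them. These splits depend on scaling. Without TMM the median name changed by 0.34 (log2) in the ergo-1 double mutant, against 0.02 with it, and by 0.72 in the hrde-1 double mutant, against 0.08 with it. Of the 151 members, 10.6% were then called lower and 17.88% higher in the ergo-1 double mutant (6.725% and 21.23% of all names), and 10.6% lower and 39.07% higher in the hrde-1 double mutant (3.753% and 40.82% of all names). Between the double mutants the split turned round without TMM, with 24.5% of the 151 lower and 11.26% higher in the ergo-1 double mutant (33.4% and 1.6% of all names). Without it, mut-16 in eri-6[e-f] gave 21 members lower and 24 higher (6.653% and 18.87% of all names). With both deletions it gave 27 and 28 (10.26% and 40.06%). The splits also depend on the deletion strain. Against sosi-1 alone, 7.285% of the 151 were called lower and 23.18% higher in the ergo-1 double mutant (10.02% and 11.27% of all names), the reverse of the order above. In the hrde-1 double mutant they were 11.92% lower and 29.14% higher (11.22% and 23.05% of all names).

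**Figure D3:**
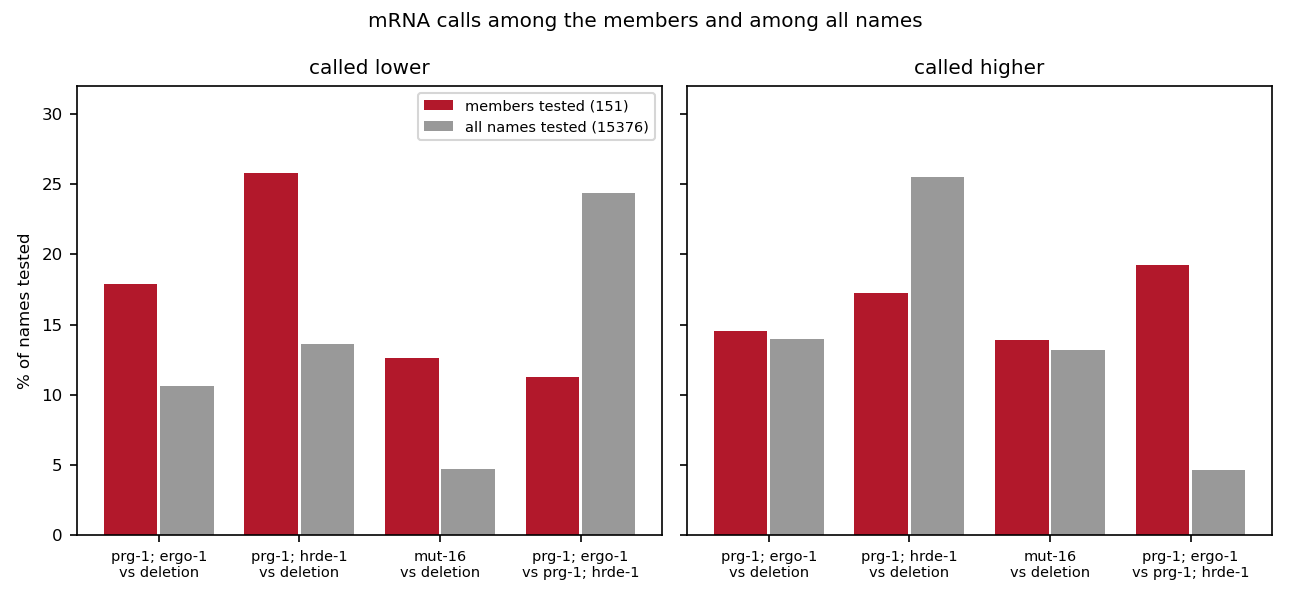
Percent of tested names whose mRNA was called lower (left) or higher (right) in 4 comparisons, for the 151 members tested (red bars) and for all 15376 names tested (grey bars). In the 3 comparisons with the mean of the deletion strains the red bars exceed the grey ones for lower calls, at 17.88% against 10.6% in the ergo-1 double mutant, and for higher calls the hrde-1 double mutant has 17.22% against 25.5%.

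The mRNA of tissue markers also differed in these comparisons. Of 36 sperm markers, 34 were called higher in the ergo-1 double mutant, 36 in the hrde-1 double mutant and 33 in the mut-16 mean. Their summed mRNA was 1638 to 1860 CPM in the ergo-1 double mutant, 3741 to 4663 CPM in the hrde-1 double mutant, 494.1 to 1044 CPM in the mut-16 strains and 39.0 to 316.9 CPM in the deletion strains, and no marker was at 0 in any strain. Of 12 intestine markers, 2 were called lower in the ergo-1 double mutant, 7 in the hrde-1 double mutant and 2 in the mut-16 mean, with sums of 32550 to 58130, 10180 to 13070, 32880 to 50200 and, in the deletion strains, 33500 to 91510 CPM. Of 9 muscle markers, 5 were lower in either double mutant and 2 in the mut-16 mean, with sums of 1849 to 3094 CPM in the ergo-1 double mutant, 2790 to 3833 CPM in the hrde-1 double mutant, 2196 to 5660 CPM in the mut-16 strains and 2561 to 9538 CPM in the deletion strains. Of 8 hypodermis markers, 7 were lower in the ergo-1 double mutant and 2 higher in the hrde-1 double mutant, with sums of 1708 to 1842 CPM in the ergo-1 double mutant, 2652 to 3479 CPM in the hrde-1 double mutant and 875.9 to 2625 CPM in the deletion strains. The hypodermis sums of the ergo-1 double mutant thus lay inside the deletion range. Oocyte markers (1 lower and 1 higher of 16 in the ergo-1 double mutant, 3 lower in the hrde-1 double mutant), germline markers (1 higher of 18 in the ergo-1 double mutant, 2 lower in the hrde-1 double mutant) and neuron markers (1 higher of 9 in the ergo-1 double mutant, 4 higher in the hrde-1 double mutant) had fewer calls against the deletion strains. The deletion strains differ in these: germline markers summed to 3347 to 4712 CPM in sosi-1, against 939.9 to 1530 CPM where eri-6[e-f] alone is deleted and 1300 to 1700 CPM with both deletions. Oocyte markers summed to 11240 to 14990 CPM in sosi-1, against 3325 to 5184 CPM where eri-6[e-f] alone is deleted and 4434 to 6363 CPM with both deletions. The double mutants also differed from each other. Lower in the ergo-1 double mutant were 18 of 36 sperm, 7 of 8 hypodermis, 3 of 9 neuron and 1 of 12 intestine markers. Higher there were 8 of 16 oocyte, 6 of 12 intestine and 1 of 18 germline markers, and no muscle marker was called. Of all names, 24.4% were lower there and 4.66% higher. The part of these lists in the members' mRNA values was not tested. In whole animals, fewer cells of a type and less RNA per cell cannot be told apart.

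C32B5.6 had more mRNA in every strain that had lost its small RNA. It had 24.08, 24.25 and 25.21 CPM of mRNA in the ergo-1 double mutant, 10.17, 12.26 and 13.11 CPM in the hrde-1 double mutant, 10.68 to 21.59 CPM with a median of 12.88 in the mut-16 strains, and 0.494 to 2.828 CPM with a median of 1.035 in the deletion strains. Its log2 changes were 4.06 ± 0.16 in the ergo-1 double mutant (adjusted p = 2.23e-16), 2.70 ± 0.16 in the hrde-1 double mutant (adjusted p = 6.82e-14) and 3.27 ± 0.13 with mut-16 (adjusted p = 2.44e-16, all edgeR). Every library of the 5 strains lay above every deletion library, and its small RNA was 3.275 to 6.459 CPM in the double mutants and 10.59 to 15.33 CPM in the mut-16 strains, against 765.0 to 998.5 CPM in the deletion strains. The gene C32B5.15 overlaps C32B5.6. Less marked was K08B4.5, with 4.253, 1.822 and 3.433 CPM in the ergo-1 double mutant, 2.266, 1.757 and 1.038 CPM in the hrde-1 double mutant and 0.350 to 1.206 CPM in the deletion strains. It was called higher in the ergo-1 double mutant (1.74 ± 0.27) and with mut-16 (1.85 ± 0.21), and not in the hrde-1 double mutant (0.51 ± 0.28).

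The members with the lowest mRNA in the ergo-1 double mutant relative to the hrde-1 double mutant included Y53F4B.5, cars-2, Y57G11C.499 and Y52B11A.18. Y53F4B.5 mRNA was 0.549, 0.649 and 0.465 CPM in the ergo-1 double mutant, 5.085, 4.576 and 4.040 CPM in the hrde-1 double mutant, 2.242 to 5.505 CPM with a median of 3.128 in the mut-16 strains, and 0.0 to 0.138 CPM with a median of 0.0380 in the deletion strains. The double mutants differed by -2.71 ± 0.28 (adjusted p = 8.66e-08, edgeR), and both exceeded the deletion strains. Beside this, its small RNA was 1303 to 1406 CPM in the ergo-1 double mutant, 33.06 to 44.65 CPM in the hrde-1 double mutant and 11.42 to 17.81 CPM in the mut-16 strains. For cars-2 the mRNA was 2.733, 2.225 and 3.559 CPM in the ergo-1 double mutant, 18.72, 17.38 and 13.32 CPM in the hrde-1 double mutant, 14.95 to 40.84 CPM with a median of 27.57 in the mut-16 strains, and 3.292 to 8.369 CPM with a median of 4.947 in the deletion strains. The double mutants differed by -2.21 ± 0.30 (adjusted p = 2.55e-06, edgeR). Y57G11C.499 mRNA was 0.172, 0.278 and 0.250 CPM in the ergo-1 double mutant, 3.097, 4.173 and 4.356 CPM in the hrde-1 double mutant, 10.42 to 28.21 CPM with a median of 22.54 in the mut-16 strains, and 0.228 to 1.380 CPM with a median of 0.832 in the deletion strains, a difference of -3.72 ± 0.34 between the double mutants (adjusted p = 9.80e-09, edgeR). Here the small RNA of the double mutants was much closer, at 732.9, 770.6 and 776.3 CPM in the ergo-1 double mutant and 390.0, 504.3 and 531.1 CPM in the hrde-1 double mutant. For Y52B11A.18, whose mRNA difference was -3.67, small RNA was also lower in the ergo-1 double mutant.

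Opposite and like directions both occurred. Of the 37 members with more small RNA in the ergo-1 double mutant than in the hrde-1 double mutant, 6 had less mRNA there, 2 had more, 24 were not called and 5 were not tested. Of the 34 with less small RNA, 4 had more mRNA, 5 had less, 23 were not called and 2 were not tested. Of all names, 24.4% had less mRNA there and 4.66% had more. T24H10.5 had less of both in the ergo-1 double mutant, with mRNA at 0.617, 0.741 and 0.465 CPM in the ergo-1 double mutant, 2.518, 2.855 and 2.032 CPM in the hrde-1 double mutant, 2.601 to 4.722 CPM in the mut-16 strains and 0.966 to 1.878 CPM in the deletion strains. Its mRNA difference was -1.68 ± 0.25 (adjusted p = 8.18e-06, edgeR). For mks-1 mRNA was too low to test, and for nspg-1 the difference in mRNA was -0.48 ± 0.32, which was not called.

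**Figure D4:**
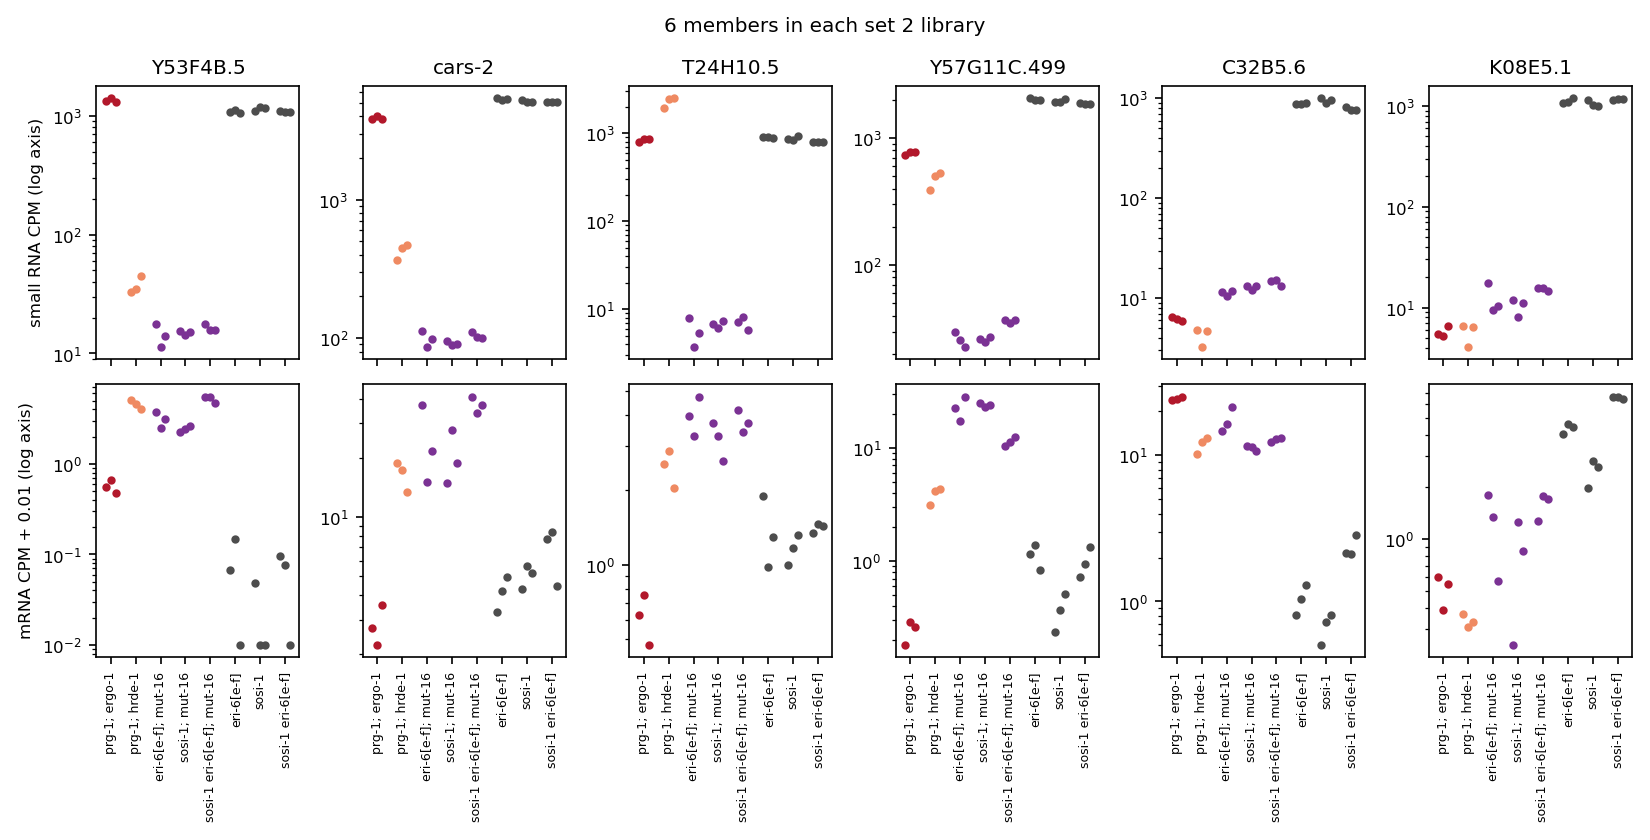
Small RNA (top) and mRNA (bottom, 0.01 added) of 6 members in each set 2 library, in CPM on log axes whose range differs between panels, with 1 point per library and colours by kind of strain. Small RNA of Y53F4B.5 and cars-2 is low in the hrde-1 double mutant and mut-16 strains, where their mRNA is high; K08E5.1 has low small RNA and low mRNA together.

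Other members had lower small RNA and lower mRNA, though not to a like degree in every strain. K08E5.1 mRNA was 0.591, 0.375 and 0.540 CPM in the ergo-1 double mutant, 0.358, 0.298 and 0.322 CPM in the hrde-1 double mutant, 0.233 to 1.784 CPM with a median of 1.261 in the mut-16 strains, and 1.965 to 6.639 CPM with a median of 4.444 in the deletion strains. Its log2 changes were -3.39 ± 0.33 (adjusted p = 3.51e-09) in the ergo-1 double mutant, -4.30 ± 0.34 (adjusted p = 3.12e-11) in the hrde-1 double mutant and -2.10 ± 0.19 with mut-16 (adjusted p = 1.55e-09, all edgeR), and its deletion libraries lay above all others. The better expressed acs-2 had mRNA of 21.26, 28.05 and 22.56 CPM in the ergo-1 double mutant, 33.31, 27.75 and 38.46 CPM in the hrde-1 double mutant, 5.521 to 43.69 CPM with a median of 23.75 in the mut-16 strains, and 51.61 to 145.9 CPM with a median of 87.84 in the deletion strains. This mRNA fell by 2.21 in the ergo-1 double mutant, by 2.05 in the hrde-1 double mutant and by 2.61 with mut-16, on the log2 scale. Of its mean deletion-strain small RNA, 37.15% was left in the ergo-1 double mutant and 0.9303% in the hrde-1 double mutant. The mRNA of acs-2 thus fell by similar amounts in 2 strains whose small RNA differed widely. The bZIP gene ces-2, which acts in programmed cell death, had 0.377, 0.432 and 0.429 CPM in the ergo-1 double mutant, 0.227, 0.293 and 0.226 CPM in the hrde-1 double mutant, 0.0 to 0.362 CPM in the mut-16 strains and 0.681 to 1.380 CPM in the deletion strains. Its mRNA change with mut-16 was -3.82 ± 0.30 (adjusted p = 8.77e-11, edgeR), and its small RNA changed by -8.51 ± 0.12. Y44A6C.2, which ipla-3 overlaps, was low in one double mutant, with 0.583, 0.741 and 0.501 CPM in the ergo-1 double mutant, 0.0504, 0.0366 and 0.0451 CPM in the hrde-1 double mutant and 0.228 to 1.331 CPM in the deletion strains, while its small RNA was under 1 CPM in both.

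No mRNA change was called for the transaminase gene got-1.2 in either double mutant or in the mean mut-16 effect. It had mRNA of 69.24, 88.06 and 77.56 CPM in the ergo-1 double mutant, 102.6, 96.54 and 109.2 CPM in the hrde-1 double mutant and 63.42 to 101.3 CPM in the deletion strains. Its small RNA was 19.85 to 24.49 CPM in the ergo-1 double mutant and 2.339 to 10.16 CPM in the hrde-1 double mutant, against 3528 to 3987 CPM in the deletion strains. Its mRNA log2 changes of -0.41 ± 0.18 and -0.33 ± 0.18 missed the threshold, which does not show that the levels are equal. Over all members called lower in small RNA in the ergo-1 double mutant, mRNA was called lower for 22, higher for 21, not called for 93 and not tested for 27. In the hrde-1 double mutant the counts were 35 lower, 23 higher, 78 not called and 28 not tested. With mut-16 they were 19 lower, 21 higher, 111 not called and 26 not tested. Of all names tested, 10.6% were called lower and 14% higher in the ergo-1 double mutant. These shares were 13.6% and 25.5% in the hrde-1 double mutant, and 4.7% and 13.2% with mut-16. Calls in both directions thus occurred among all names too, and their presence is not particular to members that lost small RNA. Against the mean of the deletion strains, lower calls took a larger share of the 151 tested members than of all names. With mut-16 they were 12.58% against 4.7%. As given above, this order changed against sosi-1 alone in the ergo-1 double mutant.

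In mRNA, some genes of the pathway itself were called higher in each double mutant and with mut-16, and lower in the hrde-1 double mutant alone. Of 25 piRNA pathway genes found in the files, 1 was called higher and none lower in mRNA in the ergo-1 double mutant, 1 higher and 6 lower in the hrde-1 double mutant, and 1 higher with mut-16. The shares of all names are those given above, 14% higher in the ergo-1 double mutant and 13.6% lower in the hrde-1 double mutant. The one called higher in each was parn-1, the exonuclease that trims piRNA 3′ ends. It had 108.4 ± 21.6 CPM in the ergo-1 double mutant and 71.7 ± 9.88 CPM in the hrde-1 double mutant (SD, n = 3 each). The mut-16 strains had 71.6 ± 19.1 CPM and the deletion strains 20.5 ± 5.78 CPM (SD, n = 9 libraries of 3 strains each). Here and below, an SD over 3 strains also holds differences between those strains. The log2 changes of parn-1 were 2.11 ± 0.17 in the ergo-1 double mutant, 1.21 ± 0.18 in the hrde-1 double mutant and 1.55 ± 0.14 with mut-16. Among the 6 lower genes in the hrde-1 double mutant only tost-1 had libraries that did not overlap, at -1.38 ± 0.21. Of 17 genes of 22G-RNA amplification, 1 was higher in the ergo-1 double mutant (rde-11, 1.38 ± 0.22), 3 were lower in the hrde-1 double mutant (rde-8 among them, -1.52 ± 0.16) and 1 was higher with mut-16. Of 20 WAGO and nuclear RNAi genes tested, 6 were higher in the ergo-1 double mutant, 1 in the hrde-1 double mutant and 4 with mut-16, and none was lower. The Argonaute gene wago-10 was higher in the ergo-1 double mutant (1.73 ± 0.354 CPM, against 0.337 ± 0.288 CPM in the deletion strains) and in the hrde-1 double mutant (3.48 ± 1.46 CPM). The sperm markers rose in the same strains, and their part in the wago-10 value was not tested.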

How the data were processed

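Small RNA was read from 30 libraries, gel selected at 18 to 30 nt, and mRNA from 24. The deposited files of the authors give expected counts, that is, estimated counts per gene name, without normalization. Cutadapt, HISAT2 and Salmon appear in the submitters' processing notes. Their versions and roles, the genome build, the annotation and the treatment of strand are not stated there. Entries with the same name were summed, and CPM are counts per 1000000 counts of the library. Counts were rounded to whole numbers. The tests used edgeR 4.0.16 under R 4.3.3 (filterByExpr by strain, TMM, quasi-likelihood F test with 1 term per strain over the 24 set 2 libraries of an assay, so that all strains share 1 estimate of the spread). The common biological coefficient of variation was 0.12 for small RNA and 0.215 for mRNA. The standard error is the log2 fold change divided by the square root of F. The fits were tested on simulated data. Alternatives were library size scaling, DESeq2 1.42.0, no filter, no minimum fold, a replicate block, each deletion strain alone, other member rules and leaving out each library.

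The rule for the members reads set 1 values only, but the rule, the gene lists and the tests were chosen with earlier results of these data known, set 2 included. Named members are the 10 with the lowest ratio and those at its limit, the 15 with the highest ergo-1 CPM, up to 30 with a symbol, and up to 8 per direction in each main comparison among those called and without overlap between libraries. A printed range is the lowest and highest library. For members below 1 CPM, counting error limits the precision. Sequences were not analysed here.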

Additional observations from a re-analysis of the deposited data

Results flagged for a closer look

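The effect of mut-16(pk710) differed between the 3 deletion backgrounds in 20 members for small RNA and in 86 members for mRNA, by an interaction test (edgeR, adjusted p below 0.05 and at least 2-fold between the highest and the lowest effect). Of all names tested, 9.58% differed for small RNA and 60.1% for mRNA, so both member counts are close to the background of 179 and 151 tested members. The small RNA share of members fell to 6.145% without replicate 1 of the mut-16 strain with both deletions, and to 6.704% without replicate 3 of the sosi-1 mut-16 strain, against 11.17% with all libraries. Among named members, the highest minus the lowest small RNA effect was 1.82 for srh-228, which changed by 2.21 ± 0.14 with both deletions, 1.14 ± 0.14 with eri-6[e-f] alone and 0.39 ± 0.13 with sosi-1 alone. It was 1.35 for T19A6.4, whose effects were -7.88, -9.22 and -8.88 in that order. For mRNA the difference was 3.15 in ces-2, 3.13 in acs-2, 2.96 in Y57G11C.499, 2.10 in C32B5.6, 1.80 in M02F4.1 and 1.25 in Y61A9LA.12. In these 6 the mRNA moved in the same direction in every background: acs-2 changed by -2.27, -1.21 and -4.34 in eri-6[e-f], sosi-1 and both deletions, and Y57G11C.499 by 4.15, 5.98 and 3.02.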

How the results depend on the processing

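Values are percentages of the 179 members that were called, except where the 151 members tested for mRNA are named as the base. For mRNA 28 of the 179 were not tested. Fold changes of the named members kept their sign under every alternative run, but splits of members into higher and lower did not. Without TMM the larger side changed for mRNA in both double mutants and between them. It also changed for mRNA with mut-16 in eri-6[e-f] and with both deletions. For small RNA it changed in the ergo-1 double mutant against the mut-16 strains. Against sosi-1 alone it changed for mRNA in both double mutants. Without TMM (library size only), small RNA calls were 0.0% higher in the ergo-1 double mutant and 0.5587% higher in the hrde-1 double mutant against the deletion strains, and 31.84% lower for the ergo-1 double mutant against the mut-16 strains. Of all names, 12.35%, 18.24% and 17.49% were called so, in that order. For mRNA the same setting gave 8.939% lower in the ergo-1 double mutant, 8.939% lower and 32.96% higher in the hrde-1 double mutant, 15.08% lower and 15.64% higher for mut-16 with both deletions, and 20.67% lower and 9.497% higher for the ergo-1 against the hrde-1 double mutant. Of all names these were 6.725%, then 3.753% and 40.82%, 10.26% and 40.06%, and 33.4% and 1.6%. DESeq2 and the absence of a filter each gave 0.0% of members with higher small RNA in the ergo-1 double mutant, and without the filter 18.99% differed in small RNA mut-16 effect between backgrounds. Over all names the higher calls were 2234 of 15380 with DESeq2 and 2602 of 31114 without the filter. Without the filter 1848 of 31114 names differed between backgrounds.

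With no minimum fold, small RNA calls were 2.793% higher in the ergo-1 double mutant, 5.028% higher in the hrde-1 double mutant, 1.117% higher for mut-16 in sosi-1, 21.23% lower for the ergo-1 double mutant against the mut-16 strains, and 17.32% for the difference between backgrounds. For mRNA they were 27.93% lower and 22.35% higher in the ergo-1 double mutant, 27.37% higher in the hrde-1 double mutant, 26.82% lower and 20.11% higher for the mean mut-16 effect, 22.91% lower in eri-6[e-f], 25.14% higher in sosi-1, 12.85% higher with both deletions, 24.58% lower for the ergo-1 against the hrde-1 double mutant and 11.73% higher for the ergo-1 double mutant against the mut-16 strains. This setting adds calls by its construction. The shares of all names are not given for it, so its values are not read as a result about the members. Among the 100 lowest ratios, small RNA calls were 1.124% higher in the ergo-1 double mutant and 0.0% higher for mut-16 in sosi-1, and mRNA calls 4.494% higher for mut-16 with both deletions. These are shares of the members within those ratios, with those untested for mRNA included. Of all names, 16.3%, 13.9% and 28.1% were called higher, in that order.

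Against eri-6[e-f] alone, 24.02% of members were called lower in mRNA in the ergo-1 double mutant (17.83% of all names). Against sosi-1 alone 6.145% were called lower and 19.55% higher (10.02% and 11.27% of all names). Against the strain with both deletions 22.91% were called lower and 7.263% higher (17.26% and 22.34% of all names). In the hrde-1 double mutant 10.06% were called lower and 24.58% higher against sosi-1 alone (11.22% and 23.05% of all names). The cause of these shifts was not tested. Leaving out 1 library gave 15.64% to 34.08% of members called lower in small RNA for the ergo-1 against the hrde-1 double mutant (2375 to 2787 of all names). Called higher for mut-16 in eri-6[e-f] were 0.5587% to 1.117% (lowest without eri-6[e-f] replicate 2 or its mut-16 replicate 1), and 1838 to 2217 of all names. The difference between backgrounds was called for 6.145% to 16.76% (1279 to 1660 of all names). For mRNA, 3.911% to 6.704% were called higher for the ergo-1 double mutant against the mut-16 strains (lowest without ergo-1 double mutant replicate 2), and 660 to 885 of all names. A replicate block left every count within 1.5 times. For example, 20.11% of members were called lower in small RNA for the ergo-1 against the hrde-1 double mutant, against 18.99% without it. Same-numbered libraries did not deviate together on average (mean correlation -0.00996 for small RNA and -0.0451 for mRNA), so no pairing by number was seen. Whether same-numbered libraries were grown or prepared together is not stated, and these values cannot exclude it.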

Other observations

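In the set 1 prg-1 libraries, which carry prg-1(n4357) without a second mutation, cars-2 had 21.47, 21.03 and 24.2 CPM of small RNA and 4785, 4653 and 4501 CPM in ergo-1. Set 2 libraries of the ergo-1 double mutant, with the same prg-1 allele, held 3839 to 4015 CPM. For T22F3.12 the set 1 prg-1 values were 0.183, 0.0 and 0.238 CPM, and those of the set 2 ergo-1 double mutant were 181.7, 211.9 and 187.5 CPM. The sets differ in strain and in growth, which cannot be told apart here.

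The list itself depends on how the ratio was built. A minimum of 10 CPM in place of 20 gave 179 members, 178 of them shared, and a minimum of 50 CPM gave 178, with 160 shared. Adding 1 in place of 0.1 to the means gave 177, with 133 shared.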
